A study of Mus musculus with 18 samples.

Results

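The 6 genes followed here mark club and ciliated cells of the airway, and were read in 18 mouse lung tumours. They are the secretoglobins Scgb1a1, Scgb3a1 and Scgb3a2, the club cell enzymes Cyp2f2 and Cbr2, and the ciliated cell regulator Foxj1. They were chosen by symbol, as all probe sets annotated to that symbol alone, which gave 6 probe sets of 22690 and 6 of 12393 named genes, 1 probe set each. Of the 6 genes, 5 exceeded the median signal of their array in 4 or more tumours and were among the 7300 genes tested. Foxj1 was under the median in all 18 and was not among the genes tested, so its values come from a fit without this filter.

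The tumours were microdissected from 6 mice of 10 weeks on a mixed C57/B6-129SvJae background, and RNA was read as log2 signals on single-colour arrays. Of 10 treated tumours, 6 were of grade 3 and 4 of grade 2, and of 8 untreated tumours, 4 were of each grade. Treated animals had p53 restored by tamoxifen, injected into the abdominal cavity 2 times, and their tumours were taken on day 7 from the first injection; untreated animals had p53 left off, and the labels name no vehicle. The labels do not give the genotype; in the published model a Cre recombinase switched on by tamoxifen restores p53, which need not be limited to tumour cells. The 6 treated grade 3 tumours all came from mouse 8688, a female, which also gave 3 of the 4 treated grade 2 tumours; the fourth, 8639T4, was from a male. Untreated tumours were all from males: 8565 (1 of grade 3, 2 of grade 2), 8584 (1 of grade 3), 8629 (2 of grade 3) and 8700 (2 of grade 2). In grade 3, treatment, animal and sex cannot be told apart. In grade 2 a single tumour, 8639T4, separates treatment from sex, while each mouse was still either treated or untreated. Because several tumours share a mouse, p-values over tumours are too small even with the mouse as a random block in the fit.

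Club cells are secretory cells of the bronchioles: they release secretoglobins, detoxify inhaled compounds through cytochrome P450 enzymes and can renew themselves and give rise to ciliated cells. Ciliated cells carry the motile cilia that move mucus, and Foxj1 is the transcription factor that switches on their cilium programme. Lung adenomas and adenocarcinomas of mice often resemble alveolar type 2 cells, and some alveolar and bronchioalveolar cells carry club cell transcripts, Scgb1a1 among them.

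The upstream sequences of Scgb3a1, Cyp2f2 and Cbr2 are shown because these were the members with a promoter entry. RefSeq held a promoter entry for 3 of the 6 genes (GRCm38.p6), and the 250 bases before the start of that entry are given on the gene's strand, 5' to 3'. For Cbr2 the last 4 of them lie inside the bounds of the RefSeq gene table. Capitals mark the only match to the motifs searched. Scgb3a1 lies at chr11:49663345-49663594 (+), Cyp2f2 at chr7:27119705-27119954 (+) and Cbr2 at chr11:120732022-120732271 (-).
Scgb3a1: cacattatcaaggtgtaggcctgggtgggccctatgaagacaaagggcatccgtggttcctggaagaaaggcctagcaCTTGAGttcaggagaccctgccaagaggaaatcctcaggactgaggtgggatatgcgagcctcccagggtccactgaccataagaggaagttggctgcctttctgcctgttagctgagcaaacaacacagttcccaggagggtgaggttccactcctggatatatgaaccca
Cyp2f2: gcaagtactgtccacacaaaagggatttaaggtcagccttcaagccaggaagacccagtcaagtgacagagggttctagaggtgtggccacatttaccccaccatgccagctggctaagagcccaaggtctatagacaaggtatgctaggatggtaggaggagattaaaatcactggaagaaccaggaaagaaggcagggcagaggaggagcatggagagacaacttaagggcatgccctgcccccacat
Cbr2: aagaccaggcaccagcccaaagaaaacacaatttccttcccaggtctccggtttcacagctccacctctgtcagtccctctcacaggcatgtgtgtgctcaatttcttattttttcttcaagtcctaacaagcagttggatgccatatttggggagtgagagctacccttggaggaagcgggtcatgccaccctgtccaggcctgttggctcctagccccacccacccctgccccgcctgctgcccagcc
Both strands were searched for TGTTTAC (forkhead factors), CTCAAG (NKX2-1), TTGCNNAA (CEBP factors) and GTTGCC (RFX factors). Scgb3a1 held CTCAAG on the reverse strand, at position -172 from the start, and the other 2 promoters held no match. Among 32851 promoters, windows of this length held TGTTTAC in 3.17%, CTCAAG in 13.33%, TTGCNNAA in 9.56% and GTTGCC in 10.43%. With 1 match, no motifs overlapped.

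The gene bodies of the 6 genes lie, in GRCm38.p6, at chr19:9083642-9087956 (Scgb1a1), chr11:49663595-49665118 (Scgb3a1), chr18:43764301-43767399 (Scgb3a2), chr7:27119955-27133660 (Cyp2f2), chr11:120729485-120732025 (Cbr2) and chr11:116330704-116335499 (Foxj1). The labelled tissue was checked on Sftpc, the surfactant gene of alveolar type 2 cells, which ran from 12.3 to 13.5 and lay above the array median in all 18 tumours. Nkx2-1, a lung lineage factor, ran from 3.21 to 4.26 and lay below the median in all 18. The arrays had medians of 6.05 to 6.18 and correlated with each other at 0.9745 to 0.997. The 3' over 5' signal of 2 control transcripts was highest in 8688T3 (2.62 on the log2 scale) and 8639T4 (1.85), against 1.05 or less elsewhere.

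Across tumours, Scgb3a2, Cyp2f2 and Scgb1a1 varied together over a wide range, Scgb3a2 most, while Cbr2 and Scgb3a1 had low correlations with them. Without its 2 farthest tumours, both of mouse 8565, Scgb3a1 had r = 0.48 with Scgb3a2 and 0.045 with Cyp2f2. Within mouse 8688 these were 0.26 and -0.26. Scgb3a2 was lower in all 6 treated grade 3 tumours than in any untreated grade 3 tumour, but its fitted difference of -4.58 (SE 1.73) did not pass the test. No member passed the threshold in any of the 5 comparisons. Tumours of the single mouse 8688 differed by 8.12 in Scgb3a2, from 1.83 to 9.94.

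**Figure D1:**
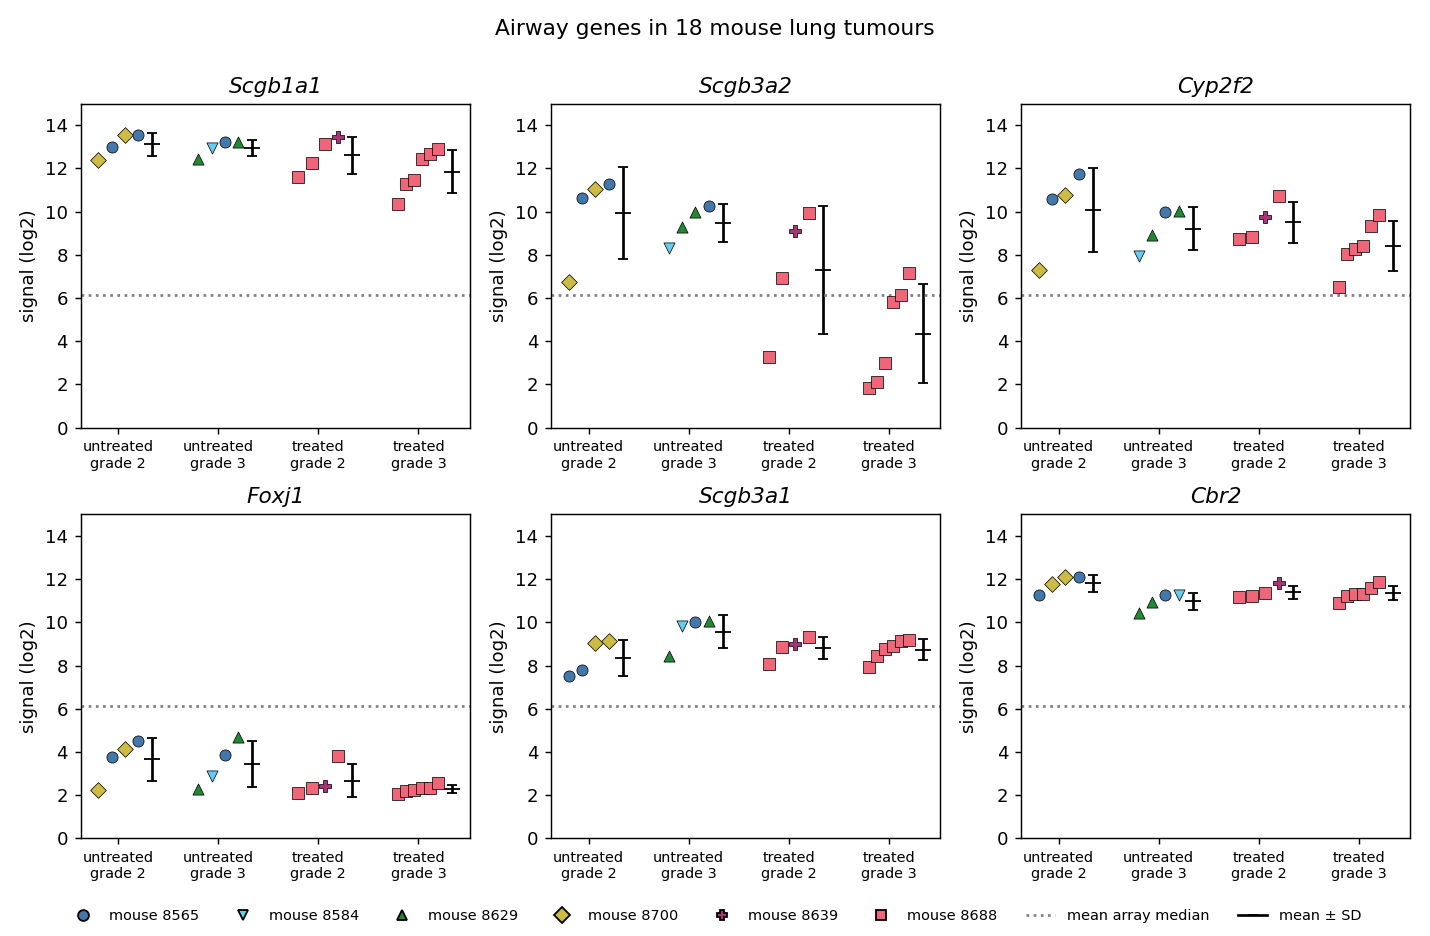
Log2 signal (y axis) of the 6 genes by treatment and grade; each point is a tumour, its colour and shape give the mouse, bars are mean ± SD, and the dotted line is the mean of the array medians. Scgb3a2 in treated grade 3 tumours runs from 1.83 to 7.16, wholly below untreated grade 3 at 8.31 to 10.28, and Foxj1 is below the dotted line in every tumour.

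Scgb3a2 encodes a secreted secretoglobin of club cells. In treated grade 3 tumours its log2 signal ran from 1.83 through a median of 4.42 to 7.16, and the 4 untreated grade 3 tumours read 10.28 (8565T1), 8.31 (8584T3), 9.29 (8629T10) and 10.01 (8629T12). The treated tumours thus lay wholly below the untreated ones. The means were 4.35 ± 2.30 (SD, n = 6) and 9.47 ± 0.88 (SD, n = 4), and the treated tumours lay above the array median on 1 of 6 arrays against 4 of 4. The fitted difference was -4.58 (SE 1.73, 95% interval -8.23 to -0.94), with a limma adjusted p of 0.384. No fold is given, since 5 of the 6 treated tumours lay below the array median. Of all 7300 genes tested, 0.466% passed in this comparison and 2.08% lay wholly below in the treated group, 152 genes with Scgb3a2 among them. Of the 5 members tested, 0 passed with limma, and 1, Scgb3a2, had an unadjusted p under 0.05, as did 8.84% of all genes. Without the mouse term, Scgb3a2 passed, at -5.12 with an adjusted p of 0.0313, in a fit that called 3.73% of all genes, and with sex as a covariate, which sets 8688 apart from all other tumours, it was -2.64 with an adjusted p of 0.701.

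In grade 2 the 4 treated tumours read 9.09 (8639T4), 3.29 (8688T10), 6.93 (8688T8) and 9.94 (8688T9) for Scgb3a2, and the untreated ones 10.65 (8565T3), 11.28 (8565T4), 6.76 (8700T1) and 11.03 (8700T3). The groups overlap, because 8700T1 is below 3 of the 4 treated tumours. The means were 7.31 ± 2.97 and 9.93 ± 2.13 (SD, n = 4 each), and the fitted difference was -2.34 (SE 1.77, 95% interval -6.06 to 1.38, limma adjusted p = 0.840). It was -0.78 (SE 2.49) with sex as a covariate, and -3.37 without 8700T1 to -1.18 without 8688T10. Over treated tumours, grade 3 was lower than grade 2 by a fitted -2.76 (SE 1.27, 95% interval -5.44 to -0.08, adjusted p = 0.997), which ran from -4.24 without 8688T10 to -1.69 without 8688T9. Over untreated tumours the fitted grade 3 minus grade 2 difference was -0.52 (SE 1.57, adjusted p = 0.911). Scgb3a2 levels were highest in untreated grade 2, then untreated grade 3, treated grade 2 and treated grade 3, and the ranges of neighbouring groups in that order overlapped. The difference between grades in the treatment effect was -2.24 (SE 2.02, 95% interval -6.49 to 2.01, adjusted p = 0.720).

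Scgb1a1, the secretoglobin that defines club cells, read between 12.44 and 13.24 in untreated grade 3 tumours (13.20, 12.96, 12.44 and 13.24 for 8565T1, 8584T3, 8629T10 and 8629T12), against 10.35 to 12.91 with a median of 11.94 in treated grade 3. The ranges overlap, and the 3 lowest treated tumours, at 10.35, 11.29 and 11.45, lay below all untreated tumours of both grades. Means were 11.85 ± 0.99 (SD, n = 6) and 12.96 ± 0.37 (SD, n = 4), with a fitted difference of -0.92 (SE 0.61, 95% interval -2.20 to 0.36, limma adjusted p = 0.678). With sex as a covariate this difference was 0.0026 (SE 0.97), which turns its sign. In that fit only 8639T4 separates treatment from sex, so the value rests on 1 tumour. In grade 2, treated tumours read 13.44, 11.60, 12.25 and 13.12 (8639T4, 8688T10, 8688T8, 8688T9) and untreated ones 12.98, 13.54, 12.40 and 13.54 (8565T3, 8565T4, 8700T1, 8700T3), and the groups overlap. The fitted difference was -0.39 (SE 0.62, limma adjusted p = 0.909), turning to 0.346 (SE 0.86) with the sex covariate. Of the 5 members tested in grade 2, 0 passed and none had an unadjusted p under 0.05, beside 0.0685% passing and 6.99% with such a p over all genes. The probe set stood between the 88.7th and 99.98th percentile of its array in every tumour. Group order was untreated grade 2 (13.11), untreated grade 3, treated grade 2 (12.60) and treated grade 3, and the ranges of neighbours overlapped.

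Cyp2f2 encodes a cytochrome P450 that activates naphthalene and other toxicants in mouse club cells. Its log2 signal in treated grade 3 tumours ran from 6.51 through a median of 8.35 to 9.84, and untreated grade 3 tumours read 9.96, 7.93, 8.93 and 10.05 (8565T1, 8584T3, 8629T10, 8629T12). The treated group held the lowest and the untreated group the highest tumour, and they overlapped. The means were 8.40 ± 1.15 (SD, n = 6) and 9.22 ± 0.998 (SD, n = 4), and the fitted difference was -0.61 (SE 0.98, 95% interval -2.67 to 1.46, limma adjusted p = 0.870). In grade 2, treated tumours read 9.77, 8.73, 8.81 and 10.74 (8639T4, 8688T10, 8688T8, 8688T9) and untreated ones 10.58, 11.73, 7.28 and 10.76 (8565T3, 8565T4, 8700T1, 8700T3). Tumour 8700T1, low in Scgb3a2 as well, was the lowest, and the groups overlap. The grade 2 difference was -0.48 (SE 1.003, adjusted p = 0.930), and grade 3 lay below grade 2 by -0.96 (SE 0.89, adjusted p = 0.660) in untreated and -1.08 (SE 0.72, adjusted p = 0.997) in treated tumours. The order of the means was untreated grade 2 (10.09 ± 1.94), treated grade 2 (9.51 ± 0.95), untreated grade 3 and treated grade 3, and the ranges of neighbours overlapped.

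Foxj1 stayed under the median of each array, so its values are differences near the low end of the scale. In treated grade 3 it ran from 2.04 through a median of 2.27 to 2.56. Untreated grade 3 tumours read 3.85, 2.88, 2.27 and 4.70 (8565T1, 8584T3, 8629T10, 8629T12), and the groups overlap through 8629T10. In grade 2, treated tumours read 2.41, 2.11, 2.33 and 3.79 (8639T4, 8688T10, 8688T8, 8688T9) and untreated ones 3.75, 4.52, 2.22 and 4.14 (8565T3, 8565T4, 8700T1, 8700T3). The fitted difference in a fit without the filter was -1.15 (SE 0.60, 95% interval -2.41 to 0.12) in grade 3 and -0.98 (SE 0.62, 95% interval -2.28 to 0.31) in grade 2, with limma adjusted p of 0.569 and 0.861. The order of the means was untreated grade 2 (3.66 ± 1.01), untreated grade 3 (3.42 ± 1.07), treated grade 2 (2.66 ± 0.77) and treated grade 3 (2.28 ± 0.17), and the ranges of neighbours overlapped.

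In bulk tumour RNA, fewer cells of a type and less RNA per cell cannot be told apart. The 6 tumours with the highest Foxj1 (8629T12, 8565T4, 8700T3, 8565T1, 8688T9 and 8565T3, at 3.75 to 4.70) were the same 6 with the highest Scgb3a2 (9.94 to 11.28, others at most 9.29) and the highest Cyp2f2 (9.96 to 11.73, others at most 9.84). They included 5 of the top 6 for Scgb1a1, 3 for Scgb3a1 and 2 for Cbr2. None of the 6 treated grade 3 tumours was among them, against 1 of 4 treated grade 2, 2 of 4 untreated grade 3 and 3 of 4 untreated grade 2. The share of all tested genes with the same top 6 tumours was not counted. By r with Foxj1, a low signal on every array, Scgb3a2 and Cyp2f2 ranked 36 and 34 among the tested genes. The summed smooth muscle list, 8 genes with 3 below the array median on all arrays, ran from 9.77 to 11.41 in these 6 tumours and from 8.71 to 10.16 in the rest, and 4 of its top 6 tumours were among the 6. The summed endothelial list (10 genes) ran from 11.6 to 12.8 against 11.3 to 12.5, with 5 shared. The summed ciliated list (20 genes, 10 of them below the median on all arrays) ran from 12.1 to 12.5 against 11.4 to 12.3, with 4 shared. The ciliated regulators (6 genes) ran from 8.87 to 9.54 against 8.31 to 9.67, with 4 shared, and the club list (29 genes) from 15.1 to 15.5 against 15.04 to 15.38, with 3 shared. In the other 10 lists, 1 to 3 tumours were shared. The part of these lists in the pattern was not tested.

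Over the 18 tumours, Scgb3a2 and Scgb1a1 had r = 0.92 (Spearman 0.91), 0.89 after subtracting group means and 0.91 within the 9 tumours of 8688. Scgb3a2 and Foxj1 had r = 0.78 and Cyp2f2 and Foxj1 r = 0.78, with 0.60 and 0.78 after subtracting group means. Cbr2 had r between -0.33 and 0.21 with the other 5, and Scgb3a1 between -0.33 and 0.14. Tumours share mice, arrays share one processing, and these coefficients are descriptions. Leaving out the 2 tumours farthest from the median of the first gene gave 0.90 for Scgb1a1 with Scgb3a2, 0.78 for Scgb3a2 with Foxj1, 0.73 for Cyp2f2 with Foxj1, and 0.53 for Scgb1a1 with Cyp2f2, which had 0.69 over all tumours. Within the 9 tumours of 8688, Scgb3a1 had r = 0.36 with Foxj1 and 0.26 with Scgb3a2. Its Spearman coefficients over the 18 tumours were 0.16 and -0.001. Scgb3a1 was farthest from its median in 8565T4 and 8565T3, where it read 7.49 and 7.78. Without them it had r = 0.65 with Foxj1 (0.14 with them) and 0.48 with Scgb3a2 (0.09 with them). With Cyp2f2 it stayed low, at 0.045 without these 2 tumours and -0.30 with them.

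**Figure D2:**
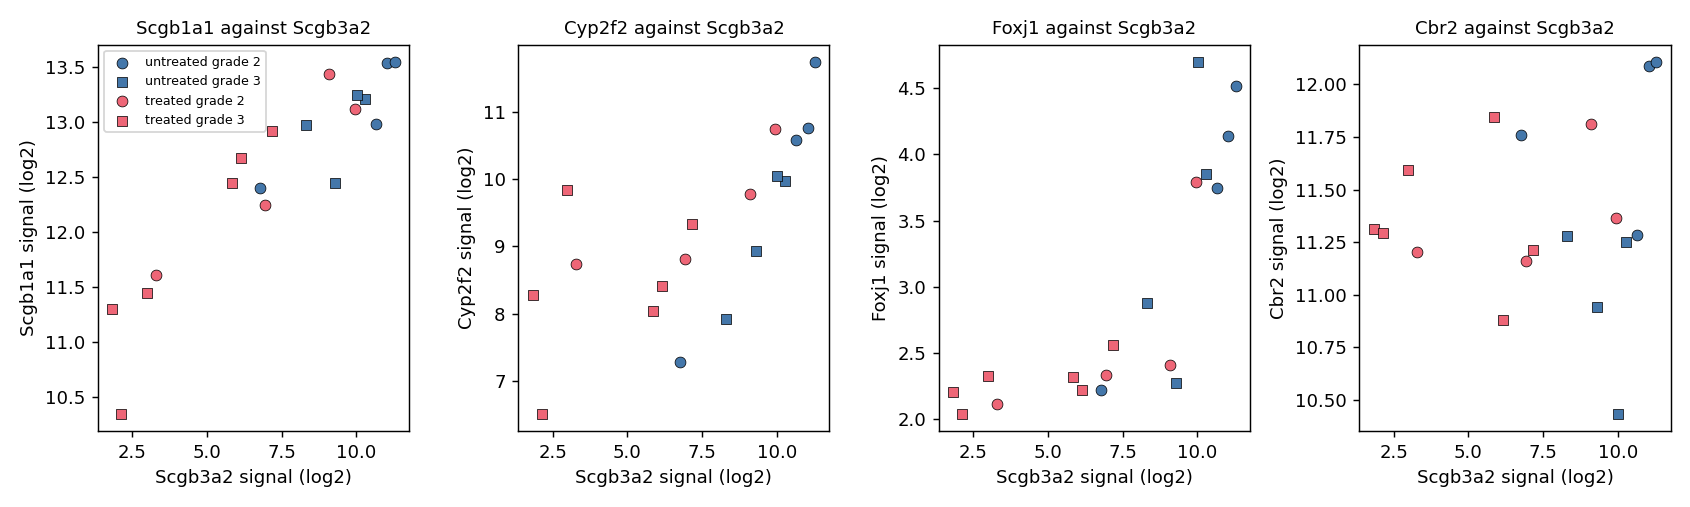
Log2 signals of Scgb1a1, Cyp2f2, Foxj1 and Cbr2 (y axes) against Scgb3a2 (x axis) in the 18 tumours; colour gives treatment and shape gives grade. Scgb1a1 is higher where Scgb3a2 is higher (r = 0.92), Foxj1 reads 3.75 or more only at Scgb3a2 of 9.94 and more, and Cbr2 shows no such order (r = 0.11).

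Scgb3a1, a secretoglobin made by airway secretory cells and known in human breast epithelium as a growth inhibitor, showed its largest fitted difference between 2 groups for grade in untreated tumours. Untreated grade 3 tumours read 10.01, 9.81, 8.42 and 10.05 (8565T1, 8584T3, 8629T10, 8629T12) and untreated grade 2 tumours 7.78, 7.49, 9.11 and 9.05 (8565T3, 8565T4, 8700T1, 8700T3). Grade 3 was higher in 3 of 4 tumours, while 8629T10 lay among the grade 2 values. The fitted difference was 1.43 (SE 0.45, 95% interval 0.49 to 2.37, limma adjusted p = 0.207). Within 8565, the only untreated mouse with both grades, the grade 3 tumour exceeded both grade 2 tumours and the fixed block gave 2.38 (adjusted p = 0.859), and with array weights the difference was 0.65 (adjusted p = 0.271). In treated tumours, grade 3 ran from 7.92 through a median of 8.82 to 9.20, grade 2 read 8.99, 8.08, 8.84 and 9.31 (8639T4, 8688T10, 8688T8, 8688T9), and the difference was -0.06 (SE 0.36, adjusted p = 0.997). Treatment gave -0.94 (SE 0.49, adjusted p = 0.605) in grade 3 and 0.55 (SE 0.50, adjusted p = 0.851) in grade 2. The difference between these 2 effects was -1.49 (SE 0.57, 95% interval -2.70 to -0.28, adjusted p = 0.539). In that comparison 0% of all genes passed with limma, 665 had an unadjusted p under 0.05, and of the 5 members 2 did, Scgb3a1 and Cbr2.

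Cbr2, the carbonyl reductase of mouse lung, present in club and alveolar type 2 cells, was the least variable member. Untreated grade 3 tumours read 11.25, 11.28, 10.94 and 10.43 (8565T1, 8584T3, 8629T10, 8629T12), all below the untreated grade 2 tumours at 11.28, 12.11, 11.76 and 12.09 (8565T3, 8565T4, 8700T1, 8700T3), though 8584T3 and 8565T3 nearly touch. The fitted difference was -0.75 (SE 0.25, 95% interval -1.28 to -0.22, limma adjusted p = 0.249), and -0.45 with the mouse as a fixed block (adjusted p = 0.999). In this comparison 0.178% of all genes passed and 3.03% lay wholly below, with 0 of 5 members called and 2, Scgb3a1 and Cbr2, at an unadjusted p under 0.05 against 12.5% of all genes. In treated grade 3 tumours Cbr2 ran from 10.88 through a median of 11.30 to 11.85, and treated grade 2 tumours read 11.81, 11.20, 11.16 and 11.36 (8639T4, 8688T10, 8688T8, 8688T9). These overlapped, and the treated grade difference was 0.02 (SE 0.20, adjusted p = 0.997), with 0% of all genes called, 141 genes with an unadjusted p under 0.05, and 1 of the 5 members, Scgb3a2. Treatment gave 0.43 (SE 0.28, adjusted p = 0.672) in grade 3 and -0.34 (SE 0.28, adjusted p = 0.849) in grade 2, and their difference was 0.77 (SE 0.33, 95% interval 0.08 to 1.45, adjusted p = 0.539). With array weights, Cbr2 passed for treatment in grade 2 (-0.68, adjusted p = 0.00485) and for untreated grade (-0.98, adjusted p = 0.00562), in fits that called 27.1% and 11.6% of all genes.

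**Figure D3:**
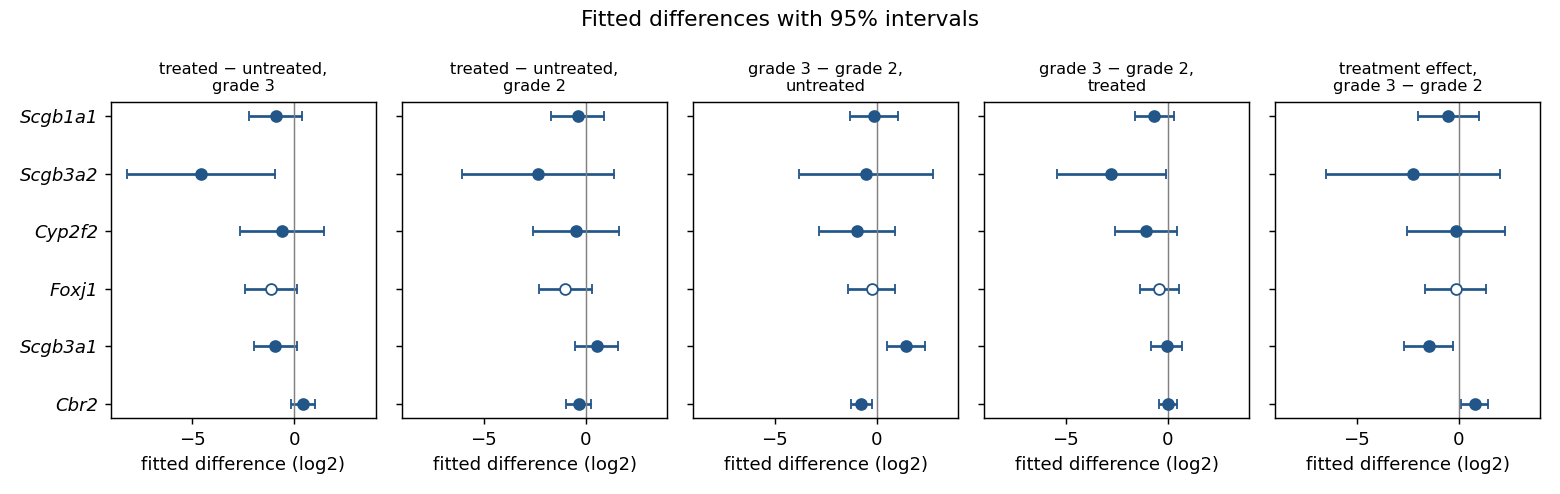
Fitted log2 differences (points, x axis) with 95% intervals for the 6 genes (y axis) in the 5 comparisons; Foxj1, drawn open, comes from the fit without the filter on low values. The interval lies off 0 for Scgb3a2 in grade 3 treatment (-8.23 to -0.94), for Scgb3a1 and Cbr2 in untreated grade, for these 2 in the difference between grades and, narrowly, for Scgb3a2 in treated grade, and no adjusted p is under 0.05.

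The spread of the members over 18 tumours was wide: Scgb3a2 had an SD of 3.14, rank 3 of the 7300 genes tested, Cyp2f2 1.35 (rank 45), Scgb1a1 0.88 (rank 173), Scgb3a1 0.73 (rank 297) and Cbr2 0.43 (rank 981), against a median SD of 0.24. In 8688, whose 9 tumours include both grades, the range was 8.12 for Scgb3a2, 4.23 for Cyp2f2 and 2.77 for Scgb1a1. In 8700 the 2 grade 2 tumours differed by 4.26 in Scgb3a2 and 3.48 in Cyp2f2, but by 0.07 in Scgb3a1. The spread of Scgb3a2 includes low signals. Its probe set lay above the array median on 12 of 18 arrays, and its lowest percentile on an array was 1.79.

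The genes whose log2 signals followed each member over the 18 tumours were named by Pearson's r. For Scgb1a1 they were Scgb3a2, Cldn10 (0.82, a tight junction claudin) and Pfkp (0.81, a phosphofructokinase), and for Scgb3a2 they were Scgb1a1, Cldn10 (0.90) and Calml4 (0.86). For Cyp2f2 they were Nme5 (0.90), Lrrc23 (0.84) and Cldn10 (0.80), and Nme5 and Lrrc23 are genes of motile cilia. For Foxj1, which the rule did not cover as it failed the filter, they were Calml4 (0.95), Lrrc23 (0.94) and Pon1 (0.93). For Cbr2 they were Utrn (0.90), Dusp3 (0.89) and Smpdl3a (0.87), and for Scgb3a1 Slc37a4 (0.80), Zc3h12a (0.77) and Fam214b (0.73). In grade 3, Cldn10 averaged 3.77 ± 0.54 (SD, 6 treated tumours) against 5.67 ± 0.76 (SD, 4 untreated tumours), fitted at -1.76 (SE 0.92, limma adjusted p = 0.603). Lrrc23 averaged 3.86 ± 0.49 against 5.03 ± 1.15, fitted at -1.15 (SE 0.93, adjusted p = 0.738). Both genes were named because they followed members over these same tumours, so their group values are a description and no separate evidence. In treated grade 3 both lay above the array median on 0 of 6 arrays. In untreated grade 3, Cldn10 did on 1 of 4 and Lrrc23 on 0 of 4.

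Among other genes of club and airway secretory cells, Ephx1 passed in 1 comparison. Of 35 listed genes, 29 were on the array and 22 tested. For treatment in grade 3, 1 of 22 passed, beside 0.466% of all genes. That gene was Ephx1, microsomal epoxide hydrolase, higher in treated tumours by 2.36 (SE 0.48, limma adjusted p = 0.0377). It no longer passed when any 1 of 6 tumours was left out (8688T1, 8688T3, 8629T10, 8629T12, 8565T3 or 8565T4), with an adjusted p up to 0.132. Nor did it pass with sex as a covariate (0.337) or the compared groups alone (0.0927). With mouse means, which leave 1 mouse in treated grade 3, it was 2.41. Of the 22, 14 were above 0, with a median of 0.17 against 0.04 and 56.9% above 0 over all genes. Cyp4b1, a P450 of club cells, had 1.79 (SE 0.54, limma adjusted p = 0.196), Cyp2b10 1.63 (SE 0.66, adjusted p = 0.438) and Scnn1g 1.25 (SE 0.33, adjusted p = 0.119). Among those below 0 were Cldn10 at -1.76 (SE 0.92, adjusted p = 0.603), Retnla at -1.13 (SE 0.57, adjusted p = 0.592) and Pon1 at -1.03 (SE 0.85, adjusted p = 0.743). In grade 3, Cldn10 and Pon1 each lay above the array median on 0 of 6 treated and 1 of 4 untreated arrays. The 3 listed genes with the highest mean signal, Nupr1, Selenbp1 and Ces1d, had 0.40, 0.35 and -0.04, with adjusted p of 0.646, 0.724 and 0.963. In grade 2, 0 of 22 passed and 8 were above 0 (median -0.11 against 0.02). Over all genes 0.0685% passed and 53.9% were above 0. Between grades in untreated tumours, 0 of 22 passed, 20 were below 0 (median -0.39, against 0.00 and 50.1% below 0 over all genes), among them Cyp4b1 at -1.74 (SE 0.49, adjusted p = 0.170) and Ephx1 at -1.70 (SE 0.44, adjusted p = 0.137); Gsta4 (0.47) and Retnla (0.75) were above. Both of these untreated grade values and the treatment values in grade 3 use the same 4 untreated grade 3 tumours. The direction was not particular to this list. Between grades in untreated tumours, 0 of 10 tested endothelial genes were above 0 (median -0.64), 0 of 10 alveolar type 1 genes (-0.29) and 3 of 15 alveolar type 2 genes (-0.34). Macrophage genes had a median of -0.02, with 4 of 12 above 0. Both tested goblet genes were above 0, but Muc5b entered the test through the untreated grade 3 tumours, where it was high. The other, Muc4, had 0.29 (SE 0.48, limma adjusted p = 0.827).

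**Figure D4:**
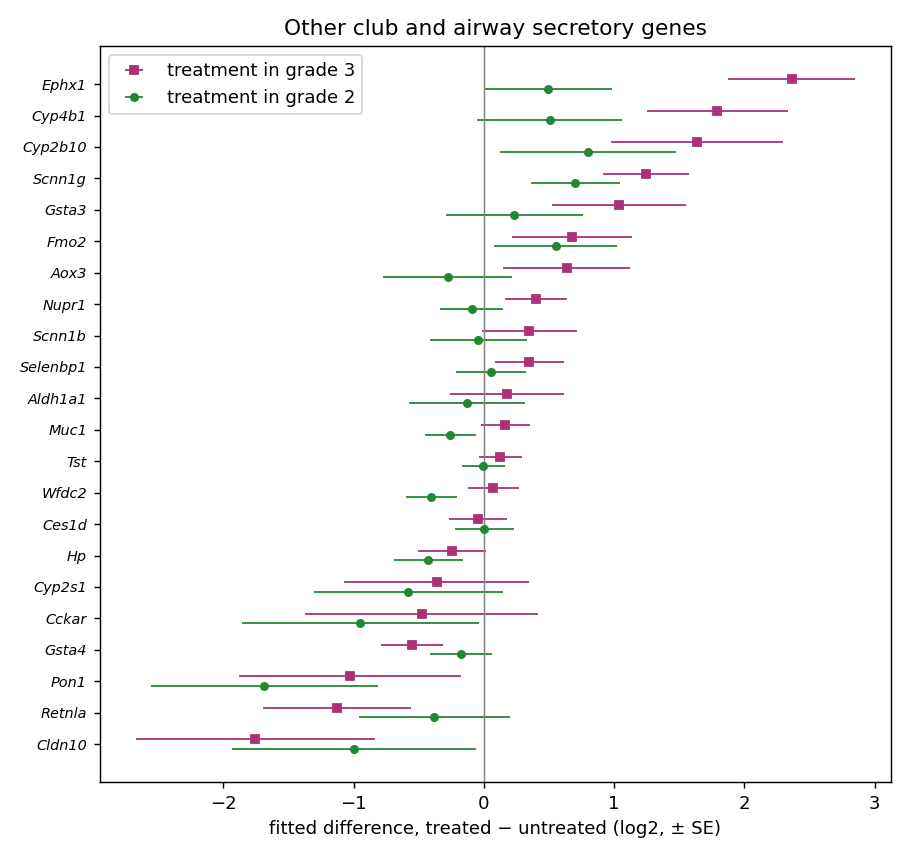
Fitted treated minus untreated log2 differences (x axis, ± SE) of the 22 tested club and airway secretory genes (y axis, ordered by the grade 3 value), for grade 3 (squares) and grade 2 (circles). Ephx1 at 2.36 in grade 3 passed the test, and Cldn10 at -1.76 is at the other end.

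Few genes of motile cilia could be tested. Of 51 listed genes, 20 were on the array, 10 of these lay below the array median on all 18 arrays, and 7 were tested, with 0 passing in any comparison. Tuba1a and Tubb4b, tubulins that many cells make, and Tppp3, a tubulin polymerisation factor, had the highest mean signals; Tppp3 was -1.24 (SE 0.38, limma adjusted p = 0.203) for grade in untreated tumours. The median for treatment in grade 3 was 0.07 against 0.04 over all genes and for grade in untreated tumours -0.35 against 0.00. Of 10 regulators of ciliated cell fate, 6 were on the array and 2 tested, E2f5 (-0.22, adjusted p = 0.739) and Myb (-0.67, adjusted p = 0.870) for treatment in grade 3, and 0 passed. Of 22 regulators of airway and lung epithelial fate, 16 were tested and 0 passed; Id2, Cebpa and Notch2, with the highest mean signals, were -0.03, 0.25 and 0.11 for treatment in grade 3.

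Among 12 goblet and mucous genes, 2 were tested. Muc5b, a mucin of airway secretory cells, exceeded the array median in the 4 untreated grade 3 tumours alone, and entered the test through the group in which it was high. Its fitted difference was 3.17 (SE 0.41, limma adjusted p = 0.00357) for grade in untreated tumours and -3.06 (SE 0.46, adjusted p = 0.00483) for treatment in grade 3, and since the filter selected it on that group, these values are a description. With mouse means neither passed (adjusted p = 0.112 and 0.341), nor did the first with the mouse as a fixed block (0.462) or the second with sex as a covariate (0.231) or the compared groups alone (0.0684). Both use the untreated grade 3 tumours, whose summed goblet list, 7 of 12 genes below the median on all arrays, ran from 7.98 to 11.18 against 7.31 to 7.81 in treated grade 3. Neuroendocrine genes (9 on the array, 0 tested) and basal genes (7 on the array, 1 tested) gave no called gene. Of the remaining lists, alveolar type 2 (15 tested), macrophage, fibroblast, endothelial, lymphocyte, neutrophil and smooth muscle had no member past the threshold in any comparison. Alveolar type 1 had Rtkn2, higher in treated than in untreated grade 3 tumours by 1.95 (SE 0.25, limma adjusted p = 0.0015). In that comparison 0.466% of all genes passed. With mouse means, which leave 1 mouse in treated grade 3, the Rtkn2 difference was 1.86.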

How the data were processed

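For 18 tumours, 100 ng of total RNA was amplified and biotin was the label on the single-colour arrays, per the labels. The values the authors deposited are log2 signals for each probe set. The submitters' processing notes name GCRMA 2.20.0 and R 2.11.0. GCRMA corrects background from probe sequence and normalises arrays to each other, so differences in total RNA are removed and low signals near its floor carry little order. Scan batch was not given in the sources.

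Each gene was represented by the probe set with the highest mean over arrays. A gene was tested if it exceeded the array median on 4 or more arrays (7300). limma 3.58.1 in R 4.3.3 fitted 4 group means to all 18 tumours with the mouse as a random block (correlation 0.259), with Benjamini-Hochberg adjustment over 7300 genes and a threshold of 0.05. Foxj1 came from the same fit without the filter. Groups were taken from the titles. The mouse correlation weights the tumours, so a fitted difference is not the plain difference of 2 means. The steps were tested on simulated data.

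The 6 genes and the gene lists were chosen with earlier results of these data known. Beside the 6 genes, the text names list genes past the threshold and the 3 highest signals of 4 airway lists. It also names the 3 closest genes by correlation, Sftpc and Nkx2-1. Cyp4b1, Cyp2b10, Scnn1g, Pon1, Gsta4, Retnla and Muc4 were named after their values were seen. Alternatives were no mouse term, mouse means, mouse as a fixed block for grade, sex as a covariate, the compared groups alone, centred arrays, no filter, a floor of log2 5, other probe set rules, array weights and leaving out each tumour. Leaving out 8688T3 and 8639T4 together was added after seeing the data. The number of arrays limits the precision.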

Additional observations from a re-analysis of the deposited data

Results flagged for a closer look

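Of 24 sets of 1 member gene in 1 group, 2 held a tumour far from the others of its group; by chance about 1 set in 20 is flagged this way. Scgb3a1 in untreated grade 3 read 8.42 in 8629T10, against 9.81 to 10.05 in the other 3 tumours. Scgb3a2 in untreated grade 2 read 6.76 in 8700T1, against 10.65 to 11.28 in the other 3. Cyp2f2 and Foxj1 were also lowest of their group in 8700T1, at 7.28 and 2.22, and 8700T1 had a 3' over 5' control signal of 1.05.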

How the results depend on the processing

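Of 290 member differences under the alternatives, 279 kept their direction and their side of the threshold, 8 changed sign and 3 newly passed. No member passed in the main fit, so none could stop passing. Each member had 1 probe set, so the other probe set rules left its signals unchanged and could alter its fit only through the other genes. The 279 include Foxj1 only in the fit without the filter, which is also the fit its values come from. How Foxj1 depends on the processing was therefore not examined. The 8 were Scgb1a1 with sex as a covariate for treatment in grade 3 (0.0026) and grade 2 (0.346), Cbr2 with sex as a covariate for treatment in grade 2 (0.0353), Cyp2f2 without 8688T3 and 8639T4 for the difference between grades (0.0086), and Cbr2 for grade in treated tumours with no mouse term (-0.028), mouse means (-0.171), centred arrays (-0.00302) and array weights (-0.0883). The 3 were Scgb3a2 for treatment in grade 3 with no mouse term (members called 1), and Cbr2 with array weights for treatment in grade 2 and for grade in untreated tumours (members called 1 each). The causes were not tested.

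The number of genes called moved more. For treatment in grade 3 it was 34, and became 272 with no mouse term, 0 with mouse means, 10 with sex as a covariate, 12 with the compared groups alone, 64 with no filter and 374 with array weights. For treatment in grade 2 it was 5, and became 37, 0, 2, 20, 10 and 1975 under the same settings, 9 with a floor of log2 5 and 10 without 8688T3 and 8639T4. For the difference between grades it was 0, and became 1 with sex as a covariate and 124 with array weights. For grade in untreated tumours it was 13, and became 111 with no mouse term, 0 with mouse means, 2 with the compared groups alone, 29 with no filter, 22 with a floor of log2 5, 844 with array weights and 0 with the mouse as a fixed block. Array weights ran from 0.224 (8584T3) to 6.34 (8700T3).

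Leaving out 1 tumour at a time, genes called ran from 12 (without 8565T4) to 164 (without 8584T3) for treatment in grade 3, from 2 (without 8700T3) to 34 (without 8584T3) in grade 2, from 0 to 15 (without 8565T1) for the difference between grades and from 2 (without 8565T4) to 91 (without 8565T1) for grade in untreated tumours, with 0 members called each time. Of 450 differences of the 5 tested members, 435 kept their direction and 15 changed sign, and Foxj1 was not among those refitted. The 15 belonged to Cyp2f2 in the difference between grades (-0.59 to 0.63), Scgb1a1 for untreated grade (-0.34 to 0.054), Scgb3a1 for treated grade (-0.33 to 0.14) and Cbr2 for treated grade (-0.065 to 0.11). Scgb3a2 for treatment in grade 3 ran from -5.24 to -4.13, with limma adjusted p of 0.132 to 0.689. Treatment could not be estimated with the mouse as a fixed block, since no mouse had both kinds of tumour.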
